A study of Mus musculus with 6 samples.

Results

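Among microglia of the healthy mouse spinal cord, the cells described here were those in which immediate-early genes took the largest share of the RNA. They were chosen in the 2 healthy libraries in steps. A cell passed the gate when it held at least 5 unique molecular identifiers (UMIs, each counting 1 captured RNA molecule) of the microglial genes Tmem119, P2ry12, Siglech, Sparc and Olfml3 together, and at most 1 of the endothelial genes Cldn5, Flt1 and Itm2a. The share of its UMIs that came from Fos, Jun, Junb, Egr1, Ier2, Atf3 and Dusp1 was its score, and cells at or above the 75th percentile of the score within their library were called high. This gave 466 high cells, 432 in healthy replicate 1 and 34 in healthy replicate 2, against 1398 remaining cells ("rest"), 1296 in replicate 1 and 102 in replicate 2. They came from 1864 gated cells of 1957 healthy barcodes, in a series of 9079 barcodes.

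The series profiled single CD11b+ cells (CD11b is a surface integrin of myeloid cells) from the spinal cord of C57BL/6 mice aged 10 weeks, with 3' end counting on the 10x platform. Its 6 libraries formed 3 groups of 2: EAE ROS+ and EAE ROS-, from mice in which experimental autoimmune encephalomyelitis (EAE), the peptide-induced mouse model of multiple sclerosis, had just set in, and healthy ROS-. ROS- cells were those without a signal from DCFDA, a dye that fluoresces once reactive oxygen species (ROS) oxidise it, so the healthy cells here were unimmunised and ROS-. Tissue of all groups had been digested with 0.2% collagenase for 30 min at 37 °C. Whether the libraries of each group were made from different animals is not stated, so the spread between these libraries may be technical. Most p-values below weigh high minus rest against a spread shared over genes, and cannot be read as a spread between animals.

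Microglia are the resident macrophages of the central nervous system. Immediate-early genes are transcribed within minutes of a stimulus without new protein synthesis, through factors that already sit in the cell, and many of their products are transcription factors (the Fos and Jun proteins, which pair as AP-1, and the Egr and Klf zinc finger proteins) or phosphatases and RNA-decay proteins that end the signal. In microglia such genes are known to respond to extracellular ATP, cytokines, injury and the handling of tissue.

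The letters in front of these genes are shown because the genes define or mark the chosen cells. RefSeq promoters on GRCm38.p6 were matched for 7 of the 9 genes formed by the score genes, Klf2 and Rhob (all but Egr1 and Ier2). The core TGACG of the cyclic AMP response element, on either strand and including the copies inside TGACGTCA, stood within 250 bases before the start of Fos, Junb, Atf3, Dusp1 and Klf2, which is 5 of 7, whereas 17.8% of all 32851 promoters in the table held it. The whole element TGACGTCA was found in Dusp1 alone among the 7 (1.55% of all promoters). The CArG box by name (1.47% of all promoters) and the AP-1 site TGANTCA (6.75%) were found in none of the 7 windows. In the lines that follow, each 250-base window runs 5′ to 3′ on the gene's own strand, and the capitals mark TGACG or its reverse complement.
Fos, chr12:85473640-85473889, plus strand: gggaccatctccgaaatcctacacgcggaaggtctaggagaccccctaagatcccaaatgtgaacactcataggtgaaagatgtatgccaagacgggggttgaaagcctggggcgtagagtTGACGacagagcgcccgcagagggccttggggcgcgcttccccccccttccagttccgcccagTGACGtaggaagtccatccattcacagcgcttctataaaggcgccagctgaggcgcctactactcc
Junb, chr8:84978749-84978998, minus strand: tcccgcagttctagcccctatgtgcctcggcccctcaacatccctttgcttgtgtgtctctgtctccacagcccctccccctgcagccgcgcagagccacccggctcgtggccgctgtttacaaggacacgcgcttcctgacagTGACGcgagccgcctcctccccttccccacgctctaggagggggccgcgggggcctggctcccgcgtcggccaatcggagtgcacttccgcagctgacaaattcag
Dusp1, chr17:26508473-26508722, minus strand: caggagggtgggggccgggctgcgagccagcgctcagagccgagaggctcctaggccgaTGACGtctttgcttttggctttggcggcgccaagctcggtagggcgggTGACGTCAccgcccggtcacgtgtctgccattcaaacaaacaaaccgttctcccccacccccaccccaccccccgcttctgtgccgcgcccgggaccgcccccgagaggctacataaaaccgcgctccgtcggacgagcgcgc
Klf2, chr8:72318812-72319061, plus strand: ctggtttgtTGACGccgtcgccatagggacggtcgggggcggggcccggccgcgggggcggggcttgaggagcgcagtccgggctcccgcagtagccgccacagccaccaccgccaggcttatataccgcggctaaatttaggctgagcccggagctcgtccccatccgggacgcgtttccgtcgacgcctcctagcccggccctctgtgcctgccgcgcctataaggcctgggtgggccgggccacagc

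Fos held TGACG at 2 places, 129 and 66 bases before its start, and Dusp1 at 3 places, 191, 143 and 140 bases before, of which the latest pair lies inside TGACGTCA. These matches describe letters only, and binding was not measured.

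The 2 healthy libraries differed in size and in how the score was spread. Replicate 1 held 1755 barcodes and 4431954 UMIs, of which 98.5% of barcodes passed the gate, and replicate 2 held 202 barcodes and 915197 UMIs, with 67.3% passing. In replicate 1 the score had 2 peaks: 1190 gated cells lay below 0.5%, 44 between 0.5 and 1%, and 494 (28.6%) at 1% or more. In replicate 2, 90 cells lay below 0.5%, 22 between 0.5 and 1%, and 24 (17.6%) at 1% or more. The 75th percentile therefore fell at a score of 1.90% in replicate 1 and 0.755% in replicate 2, so that 62 rest cells of replicate 1 were at 1% or more and 10 high cells of replicate 2 were below it. The high cell nearest the limit had 1.90% and the rest cell nearest it 1.89% in replicate 1, and 0.766% and 0.751% in replicate 2. Within 0.1 percentage points of the limit lay 31 cells of replicate 1 and 11 of replicate 2. The median score was 3.07% in high cells and 0.168% in rest cells of replicate 1, and 1.52% in high cells and 0.357% in rest cells of replicate 2. The 2 healthy libraries shared 0 barcodes, and 1 gated barcode occurred in both healthy replicate 1 and EAE ROS- replicate 1.

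**Figure D1:**
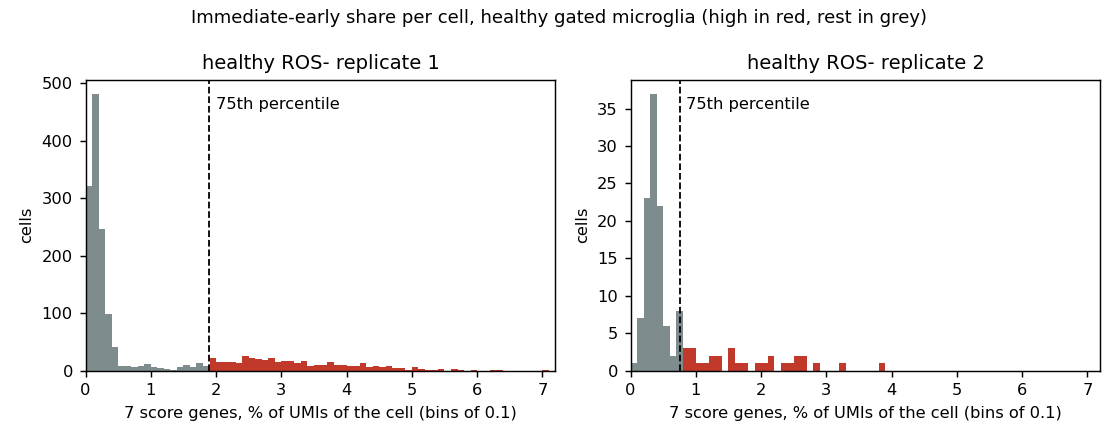
Number of gated healthy cells (vertical axis) by the percent of their UMIs from the 7 score genes (horizontal axis), with high cells in red, rest cells in grey and the 75th percentile dashed; the bin that holds the percentile takes 1 colour. Replicate 1 shows a narrow peak under 0.5% and a broad one above 1.90%, and replicate 2 a peak under 0.5% with a thin tail.

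High cells held more RNA than rest cells, above all in replicate 1. Median UMIs per cell were 3631 in high and 2007 in rest cells of replicate 1, and 3950 in high and 3191.5 in rest cells of replicate 2. Of the deepest 25% of gated cells, 70.6% were high in replicate 1 and 38.2% in replicate 2, against 6.48% and 17.6% of the shallowest 25%. Once each cell was thinned to 1000 UMIs (5 high and 36 rest cells of replicate 1 and 0 high and 2 rest cells of replicate 2 were shallower), the median number of genes was 588 in high and 632 in rest cells of replicate 1, and 601.5 in high and 609 in rest cells of replicate 2, where the unthinned medians were 1503 and 1094.5, and 1711.5 and 1458. Cells chosen again by the score of thinned counts were the same high cells for 96.5% in replicate 1 and 80.6% in replicate 2. The median mitochondrial share was 1.51% in high and 1.26% in rest cells of replicate 1, and 2.39% in high and 2.40% in rest cells of replicate 2. The part of depth in the gene differences was not tested beyond the thinned counts given at the end. No doublet caller was run.

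The 10 microglial markers, the 5 gate genes included, summed to 193 UMIs per 10000 in high and 252 in rest cells of replicate 1. In replicate 2 they summed to 247 in high and 276 in rest cells. None of the 10 was at 0, which for the gate genes follows in part from the choice of cells. Monocyte and macrophage markers (7 genes) were at 0.356 per 10000 in high and 0.343 in rest cells of replicate 1, and at 0.134 and 0.135 in replicate 2. The 12 endothelial markers, the 3 gate genes included, summed to 0.119 in high and 0.207 in rest cells of replicate 1, and to 2.54 and 2.94 in replicate 2. The 8 border macrophage markers were at 0.680 in high and 1.60 in rest cells of replicate 1, with Lyve1, Pf4, Cd163, Ms4a7, Cbr2 and F13a1 at 0 in the high cells, and at 0.535 in high and 1.03 in rest cells of replicate 2. Nearly all of these UMIs were of the scavenger receptor gene Stab1: 108 of 109 in high and 439 of 448 in rest cells of replicate 1, and 8 of 8 and 38 of 38 in those of replicate 2. The 6 oligodendrocyte markers were at 1.34 in high and 1.15 in rest cells of replicate 1, and at 1.54 and 1.27 in replicate 2. The 6 astrocyte markers were at 0.780 in high and 1.39 in rest cells of replicate 1, and at 1.74 and 3.00 in replicate 2. The part of these RNAs in the results was not tested. Markers of border macrophages, monocytes and macrophages, neutrophils, T and NK cells and B cells were also counted together, without endothelial, oligodendrocyte and astrocyte markers. At least 2 UMIs of them were seen in 9.03% of high and 9.65% of rest cells of replicate 1, and in 5.88% and 11.8% in replicate 2. Of the 5 markers given for these cells, Egr1, Jun and Ier2 belong to the score, which leaves Klf2 and Rhob as genes that the choice did not use.

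The 7 score genes were higher in high cells of both libraries because they chose the cells, and their levels are a description. Levels are in CPM, the UMIs of a gene summed over the cells of a class in a library and scaled to a common library total, with the score genes left out of the total and totals adjusted by the trimmed mean of M values. Junb, a Jun family subunit of AP-1, stood at 8154 CPM in high and 823 CPM in rest cells of replicate 1, and at 3797 CPM in high and 742 CPM in rest cells of replicate 2. Fos, the classic partner of Jun, stood at 6557 and 416 CPM in high and rest cells of replicate 1, and at 3225 and 686 CPM in those of replicate 2. In both libraries the high cells were therefore far above the rest, and the gap was wider in replicate 1. The ratio of high over rest ran from 9.91 (Junb) to 15.8 (Fos) in replicate 1 and from 3.47 (Jun) to 6.94 (Dusp1) in replicate 2.

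**Figure D2:**
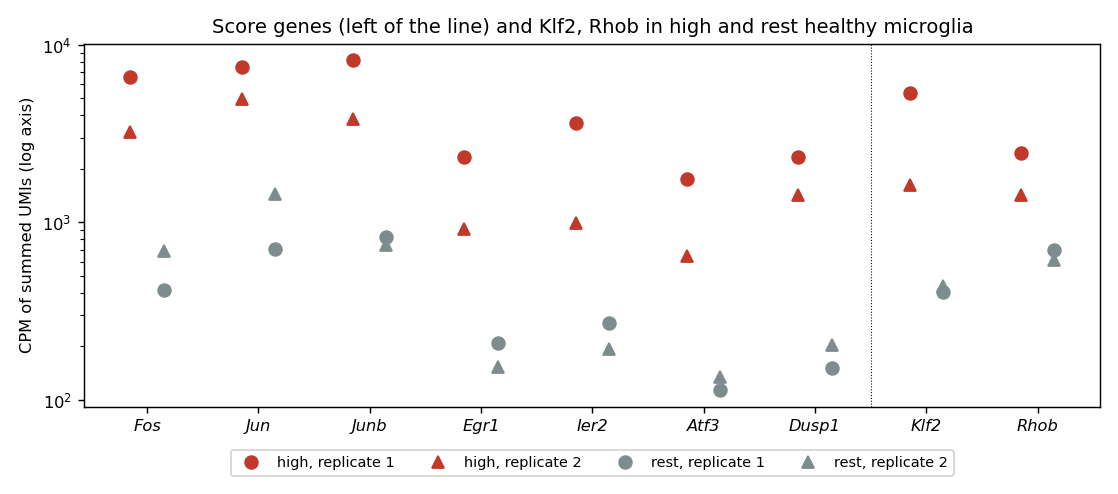
CPM on a log axis of the 7 score genes (left of the dotted line) and of Klf2 and Rhob, with high cells in red left of rest cells in grey, circles for healthy replicate 1 and triangles for replicate 2; each point is 1 library and class. For each of the 9 genes both red points lie above both grey points, as for Klf2 with 5355 and 1625 CPM in high cells and 406 and 439 CPM in rest cells.

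Each score gene also differed when it took no part in the choice. Cells were chosen again by the other 6 genes, and the left-out gene was tested in a fit over all genes by the quasi-likelihood test of edgeR, where genes with a Benjamini-Hochberg adjusted p below 0.05 were called. The log2 difference of high minus rest in healthy cells was 3.39 ± 0.21 (SE) for Dusp1, a phosphatase that switches off mitogen-activated protein kinases, 3.31 ± 0.19 for Atf3, a stress-induced bZIP factor, 3.11 ± 0.21 for Ier2 and 3.09 ± 0.19 for the zinc finger factor Egr1. It was 2.96 ± 0.26 for Fos, 2.74 ± 0.21 for Junb and 2.47 ± 0.23 for Jun. All 7 were called, with the largest edgeR adjusted p at 1.7e-13, for Fos. The 7 genes come from 1 rule and were tested in the same data. These calls therefore describe how the genes vary together and are not independent of one another. Egr1, chosen without itself, had 2293 CPM in high and 218 CPM in rest cells of replicate 1, and 815 CPM in high and 156 CPM in rest cells of replicate 2. Both summed high values of Egr1 thus exceeded both summed rest values.

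Across all other genes, 936 of 10950 tested (8.55%) were called between high and rest healthy cells: 632 (5.77%) were higher and 304 (2.78%) lower in high cells. The median log2 difference of all 10950 was -0.01. Of the called genes, 480 of the higher and 272 of the lower ones had that direction in both healthy libraries. The fit used UMI sums of high and rest cells of the healthy and the EAE ROS- libraries with the library as a block, which leaves 2 residual degrees of freedom, so that its p-values rest almost wholly on a spread shared over genes (common biological coefficient of variation 0.081). DESeq2 on the same sums called 132 higher and 5 lower, limma on log2 CPM called 7 higher and 0 lower (1515 at an unadjusted p under 0.05), and without replicate 1 the main test called 37 and 22.

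**Figure D3:**
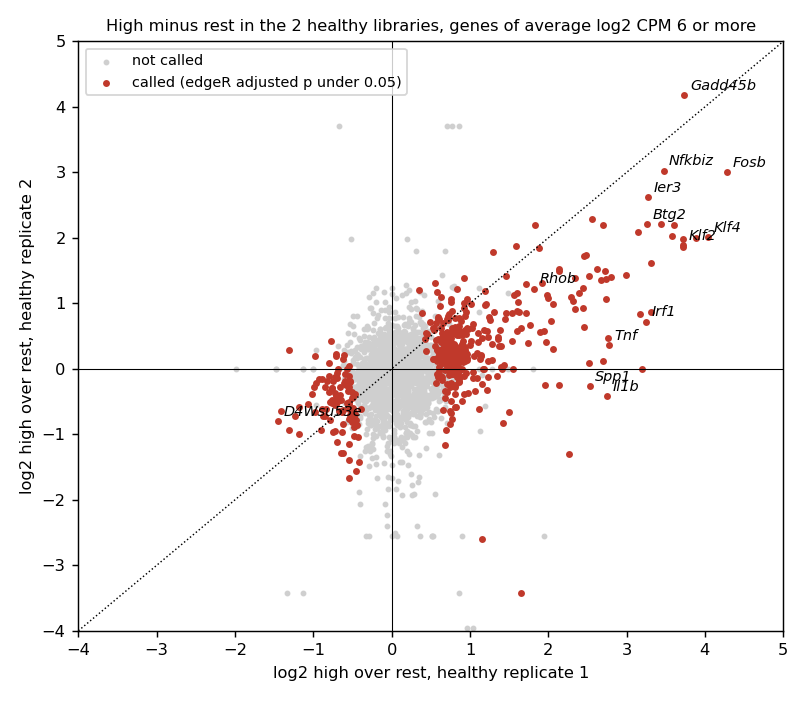
Log2 of high over rest, each with 0.5 CPM added, in healthy replicate 1 (horizontal) and healthy replicate 2 (vertical) for genes of average log2 CPM 6 or more, 2236 drawn and 8 outside the axes; red genes were called and the dotted line marks equality. Fosb, Gadd45b, Nfkbiz and Klf2 are high on both axes, whereas Il1b and Spp1 are above 0 in replicate 1 and below it in replicate 2.

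Transcription factor genes beyond the score rose with it. Over all genes tested, against which each list below is set, 5.77% were higher and 2.78% lower. Of 12 tested genes in a list of mostly AP-1 and bZIP factors outside the score, 10 were higher and 0 lower. The median log2 difference was 1.42. Without healthy replicate 1, 3 were higher (median 1.53). Fosb, a Fos family member, had 899 CPM in high and 45.7 CPM in rest cells of replicate 1, and 295 CPM in high and 36.4 CPM in rest cells of replicate 2. Both high values exceeded both rest values, a 17.6-fold difference (log2 4.14 ± 0.18 SE, edgeR adjusted p = 8.1e-108). Jund, which unlike its relatives is abundant in many resting cells, had 4027 CPM in high and 507 CPM in rest cells of replicate 1, and 1552 and 577 CPM in those of replicate 2 (log2 2.32 ± 0.20). Maff, a small Maf protein without an activation domain, rose by 3.64 ± 0.38 on the log2 scale, with only 1 UMI in high and 0 in rest cells of replicate 2. Atf4, a factor of the integrated stress response, rose by 1.36 ± 0.15 and Cebpd by 1.16 ± 0.14. The 2 that were not called were Mafg and Bhlhe40, a helix-loop-helix factor that the list also holds.

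Of 13 tested zinc finger, helix-loop-helix and orphan nuclear receptor genes, 7 were higher and 0 lower (median 1.71). The library medians were 1.84 in replicate 1 and 0.30 in replicate 2, and without healthy replicate 1 3 of 12 were called, all higher (median 0.63). Klf2, a zinc finger factor known for quiescence in lymphocytes and endothelium, had 5355 CPM in high and 406 CPM in rest cells of replicate 1, and 1625 CPM in high and 439 CPM in rest cells of replicate 2. This was a 7.77-fold difference (log2 2.96 ± 0.20 SE, edgeR adjusted p = 2.4e-45). Both summed high values of Klf2 exceeded both summed rest values. Single cells of the classes overlapped: in each library the rest cell with the largest share of Klf2 UMIs exceeded the median high cell. Klf4 had 437 and 26.1 CPM in high and rest cells of replicate 1 and 187 and 46.1 CPM in those of replicate 2 (log2 3.77 ± 0.18). Egr2 rose by 3.86 ± 0.22, Klf6 by 1.88 ± 0.17 and Nr4a1, an orphan receptor induced by many stimuli, by 3.69 ± 0.30. In replicate 2, Egr2 had only 4 UMIs in high and 2 in rest cells, and Nr4a1 had 6 and 1. Nr4a1 was among the 7 genes that limma also called, with Fosb, Gadd45b, Nfkbiz, Ier3, Map3k8 and RP24-64D24.4.

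Of 19 tested genes whose products end signals or destroy mRNA, 17 were higher and 0 lower (median 2.54), and 9 were higher without healthy replicate 1 (median 1.22). Btg2, an antiproliferative protein that speeds deadenylation, had 4018 CPM in high and 418 CPM in rest cells of replicate 1, and 2118 and 458 CPM in those of replicate 2 (log2 2.82 ± 0.19). Zfp36 (tristetraprolin), which binds AU-rich elements of cytokine mRNAs, had 2337 and 264 CPM in high and rest cells of replicate 1, and 1228 and 288 CPM in those of replicate 2 (log2 2.74 ± 0.19). For both genes high and rest levels were well apart in each library. Socs3, an inhibitor of cytokine receptor signalling, had 2049 and 168 CPM in high and rest cells of replicate 1, and 860.5 and 187 CPM in those of replicate 2 (log2 3.13 ± 0.20). Gadd45b, a stress sensor upstream of p38 kinase, had 307 and 22.5 CPM in high and rest cells of replicate 1, and 96.3 and 4.85 CPM in those of replicate 2. Its log2 difference was 3.79 ± 0.19, with 3.74 in replicate 1 and 4.18 in replicate 2, where it rests on 16 UMIs in high and 2 in rest cells. Ppp1r15a (Gadd34), which restores translation after stress, rose by 3.63 ± 0.17, Csrnp1 by 3.47 ± 0.22 and Ier3 by 3.15 ± 0.19. Csrnp1 had only 6 UMIs in high and 4 in rest cells of replicate 2.

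NF-kB feedback and cytokine genes were called in 21 of 24 cases, all higher (median 2.25), but the differences were larger in replicate 1: the list's median difference was 2.57 there and 0.60 in replicate 2, and 15 of the 21 were higher in both. Without healthy replicate 1, 6 were called, all higher (median 0.53). Nfkbiz, a nuclear cofactor of NF-kB that it induces itself, had 980 CPM in high and 87.8 CPM in rest cells of replicate 1, and 379 and 46.1 CPM in those of replicate 2 (log2 3.41 ± 0.18, edgeR adjusted p = 7.5e-77). Nfkbia, the inhibitor that returns NF-kB to the cytoplasm, had 3628 and 365 CPM in high and rest cells of replicate 1, and 1715 and 560 CPM in those of replicate 2 (log2 2.58 ± 0.20). Both feedback genes were thus higher in high cells of each library. The chemokine Ccl2 had 371 and 30.6 CPM in high and rest cells of replicate 1, and 120 and 29.1 CPM in those of replicate 2 (log2 3.38 ± 0.25). Ccl4 had 1264 and 205 CPM in high and rest cells of replicate 1, and 584 and 204 CPM in those of replicate 2 (log2 2.26 ± 0.20). Ccl12 rose by 2.24 ± 0.21 and Icam1, an adhesion molecule, by 2.50 ± 0.17.

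For Tnf, Il1b and Cxcl10 the 2 libraries differed. Tnf had 353 CPM in high and 51.3 CPM in rest cells of replicate 1, but 84.2 and 65.4 CPM in those of replicate 2 (log2 2.47 ± 0.18). Without replicate 1 the log2 difference of Tnf was 0.29 with an edgeR adjusted p of 0.94. Il1b had 94.9 and 13.6 CPM in high and rest cells of replicate 1, and 18.1 and 24.2 CPM in those of replicate 2, so the direction differed between libraries. Its replicate 2 levels rested on only 3 UMIs in high and 10 in rest cells. Its fitted difference of 2.42 ± 0.32 was not called by DESeq2 (1.48, adjusted p = 1.00). Cxcl10, an interferon-induced chemokine, had 94.9 and 22.3 CPM in high and rest cells of replicate 1, and 0 and 26.7 CPM in those of replicate 2, and its called difference of 1.78 ± 0.27 took the opposite sign in DESeq2 (-0.31). Irf1, called with 3.00 ± 0.18, had 629 and 65.6 CPM in high and rest cells of replicate 1, and 84.2 and 50.9 CPM in those of replicate 2. It was the 1 gene called among 17 interferon response genes (0 lower, median 0.14), which is 5.88%, against 5.77% higher among all genes tested.

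**Figure D4:**
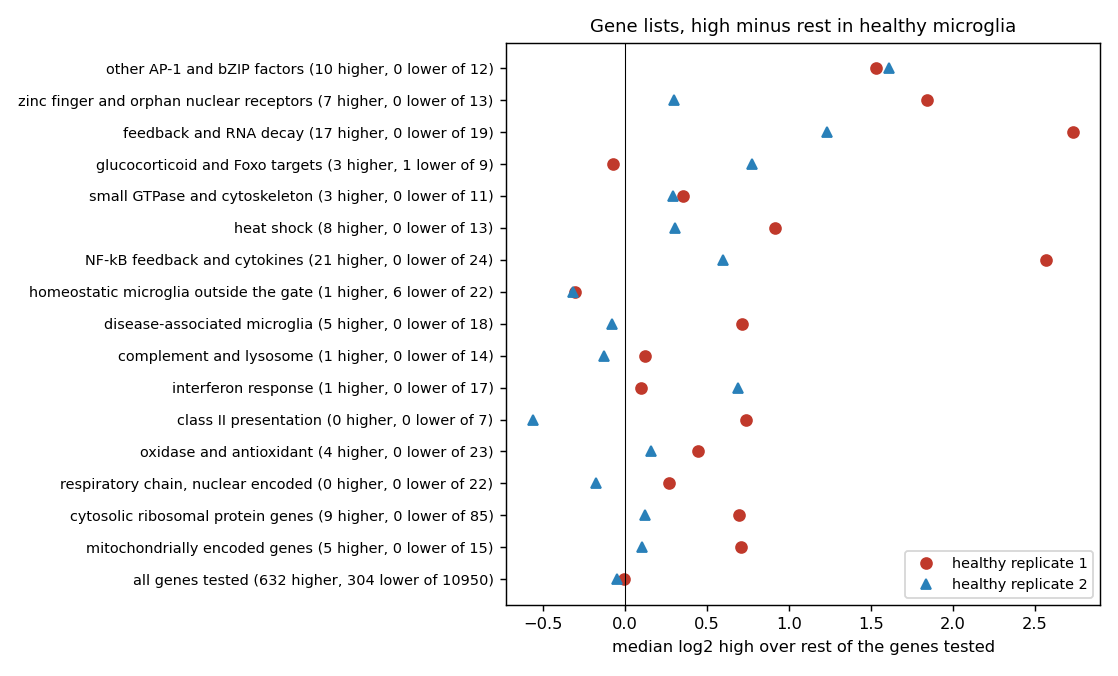
Median log2 of high over rest (0.5 CPM added) over the tested genes of each list in healthy replicate 1 (red circles) and replicate 2 (blue triangles), with the number called in each direction beside the list's name. Signal feedback genes lie at 2.73 and 1.23, NF-kB genes at 2.57 and 0.60, and homeostatic microglial genes at -0.30 and -0.32.

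Small GTPase and cytoskeletal genes changed in 3 of 11 cases, all higher (median 0.47; 2, median 0.22, without healthy replicate 1). Rhob, an endosomal small GTPase induced by growth factors and stress, had 2450 CPM in high and 692 CPM in rest cells of replicate 1, and 1426 and 611 CPM in those of replicate 2. This was a 2.97-fold difference (log2 1.57 ± 0.17 SE, edgeR adjusted p = 1.2e-17). Both summed high values of Rhob exceeded both summed rest values. Single cells of the classes overlapped: in each library the rest cell with the largest share of Rhob UMIs exceeded the median high cell. Rhoc had a difference of 0.57 ± 0.25 that was not called (edgeR adjusted p = 0.15). Actg1, a cytoplasmic actin, rose by 1.37 ± 0.19, and Rgs1, which shuts down G protein signals, by 0.64 ± 0.19, both called but with Rgs1 not called by DESeq2.

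Of 13 heat shock genes, 8 were higher and 0 lower (median 1.00), and none was called by edgeR without healthy replicate 1 (median 0.23). Hspa1a, an inducible Hsp70, had 151 CPM in high and 13.9 CPM in rest cells of replicate 1, and 66.2 and 17.0 CPM in those of replicate 2 (log2 3.27 ± 0.24). Dnajb1, its co-chaperone, had 687 and 98.2 CPM in high and rest cells of replicate 1, and 181 and 67.9 CPM in those of replicate 2 (log2 2.63 ± 0.15). Both were higher in the high cells of each library. Without replicate 1, 0 of the 13 heat shock genes were called.

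Glucocorticoid and Foxo target genes were mixed, with 3 of 9 higher, 1 lower and a median of 0.00. Tsc22d3 (Gilz), a glucocorticoid-induced anti-inflammatory protein, had 710 and 162 CPM in high and rest cells of replicate 1, and 445 and 155 CPM in those of replicate 2 (log2 1.99 ± 0.15). The clock gene Per1 rose by 2.46 ± 0.35 and the kinase gene Sgk1 by 0.80 ± 0.16. Per1 had only 2 UMIs in high and 1 in rest cells of replicate 2. The lower one, Pik3ip1, an inhibitor of PI3 kinase, was a rare transcript with 0.641 and 6.23 CPM in high and rest cells of replicate 1, and 0 and 4.85 CPM in those of replicate 2.

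Of 23 oxidase subunit and antioxidant genes, 4 were higher and 0 lower (median 0.33), namely Mt1, Mt2, Gpx1 and Hmox1. Without healthy replicate 1, 2 were higher (median 0.08). Mt1, a metal-binding protein induced by zinc and stress, had 1.24 (replicate 2) to 2.44 (replicate 1) as its log2 differences, and rose by 2.04 ± 0.17. The metallothionein gene Mt2 rose by 1.85 ± 0.39. Gpx1, a glutathione peroxidase, rose by 1.19 ± 0.18, and its differences in the 2 libraries were 1.19 each. Hmox1, called with 1.22 ± 0.20, had 1.34 in replicate 1 and -0.10 in replicate 2.

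Of 22 homeostatic genes of microglia outside the gate, 6 fell, 1 rose and 15 were not called (median -0.29), with 16 of the 22 lower in both libraries whether called or not. The median was between -0.40 and -0.22 in the alternatives run, but the count called lower varied. It was 0 in limma and in edgeR with no replicate block, 0 in edgeR when replicate 2 of EAE ROS- was left out, and 1 when replicate 1 of that group was left out or the healthy libraries were fitted alone. It was 5 without healthy replicate 1 and 9 (with 3 higher) without healthy replicate 2. Tgfbr1, the receptor through which TGF-beta maintains microglia, had 538 CPM in high and 906 CPM in rest cells of replicate 1, and 373 and 727 CPM in those of replicate 2. It fell by 0.82 ± 0.16 on the log2 scale (edgeR adjusted p = 2.1e-05), with high below rest in both libraries, and it was the 1 homeostatic gene that DESeq2 called. Mertk, a phagocytic receptor, fell by 0.72 ± 0.15, Sall1, a transcription factor of microglial identity, by 0.65 ± 0.16, Fcrls by 0.63 ± 0.16, the ADP receptor gene P2ry13 by 0.61 ± 0.14 and Rnase4 by 0.53 ± 0.15. The fractalkine receptor gene Cx3cr1 had a difference of -0.35 that was not called (edgeR adjusted p = 0.29).

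Of 18 disease-associated microglia genes, 5 were called higher and 0 lower (median 0.51), 3 of them higher in both libraries, and the direction of the list rested on replicate 1. Without healthy replicate 1, 0 were higher and 3 lower (median -0.16), and with the top 10% of cells 0 were higher and 2 lower (median -0.24). The fit with no replicate block and limma called 0, and DESeq2 called 3 higher. Axl, a receptor tyrosine kinase for cell debris, had 27.6 and 7.42 CPM in high and rest cells of replicate 1, and 24.1 and 4.85 CPM in those of replicate 2 (log2 1.92 ± 0.37). Apoe, a lipid carrier, had 1881 and 479 CPM in high and rest cells of replicate 1, and 1155 and 870 CPM in those of replicate 2 (log2 1.29 ± 0.23). Axl and Apoe were higher in high cells of each library, but Axl rested on few UMIs in replicate 2. Its CPM there equalled those of Egr2, which had 4 UMIs in high and 2 in rest cells. Spp1 (osteopontin), called with 2.29 ± 0.35, had 41.7 and 6.82 CPM in high and rest cells of replicate 1 but 12.03 and 14.5 CPM in those of replicate 2. Its replicate 2 levels also rested on few UMIs. Lpl rose by 0.92 ± 0.21. Of the complement and lysosome genes, 1 of 14 was higher (7.14%, against 5.77% of all genes tested) and 0 lower (median 0.04). This was C5ar1, with 0.70 ± 0.16, which was lower in high cells of replicate 2 (126 against 138 CPM). The complement gene C1qa had a difference of -0.25 ± 0.22 (edgeR adjusted p = 0.61).

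Of 85 cytosolic ribosomal protein genes 9 were higher and 0 lower (median 0.44), and of 15 mitochondrially encoded genes 5 were higher and 0 lower (median 0.50). The shares called higher were 10.6% and 33.3%, against 5.77% of all genes tested. Of 22 nuclear-encoded respiratory chain genes 0 were called (median 0.18), and of 7 class II genes 0 were called (median 0.74), by edgeR and by DESeq2 alike, with 1 gene of each list at an unadjusted edgeR p under 0.05. Among the nuclear RNAs, Neat1, the scaffold of paraspeckles, rose by 2.26 ± 0.17, whereas Malat1 had -0.17 ± 0.26 (edgeR adjusted p = 0.80). Of 12 cell cycle genes, 1 (Stmn1, also a tubulin-binding protein outside division) was higher and 0 lower. That is 8.33% higher, against 5.77% of all genes tested.

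Named rises outside the lists were Kdm6b (log2 3.64 ± 0.17), a histone H3 demethylase, Casp4 (3.44 ± 0.17), the caspase that senses cytosolic lipopolysaccharide, Marcksl1 (3.31 ± 0.18) and Pim1 (3.20 ± 0.29), a serine/threonine kinase. Kdm6b had 623 and 46.9 CPM in high and rest cells of replicate 1, and 78.2 and 19.4 CPM in those of replicate 2. Pim1 had 87.2 and 8.31 CPM in high and rest cells of replicate 1, and 18.1 and 9.70 CPM in those of replicate 2, so that its difference in replicate 2 was 0.86. That value rested on only 3 UMIs in high and 4 in rest cells. The average level by which genes were named also counts the EAE ROS- sums, where Pim1 had 163 to 382 CPM. D4Wsu53e (now Rsrp1, an arginine- and serine-rich protein) had 463 CPM in high and 1262 CPM in rest cells of replicate 1, and 355 and 618 CPM in those of replicate 2, and fell by 1.24 ± 0.18 (edgeR adjusted p = 4.2e-10). Hmha1 (now Arhgap45, a GTPase-activating protein) had 250 and 624 CPM in high and rest cells of replicate 1, and 247 and 473 CPM in those of replicate 2, and fell by 1.23 ± 0.15. High cells were below rest cells in each library for both genes.

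The other named falls included B430010I23Rik (-1.31 ± 0.16) and Tmem86a (-1.15 ± 0.17). RNA-processing and transcription genes among them were Ccnt2 (-1.18 ± 0.18), a cyclin of the elongation factor P-TEFb, Luc7l3 (-1.08 ± 0.18), a splicing-associated protein, and the zinc finger genes Zfp207 (-0.95 ± 0.18) and Zc3h7a (-0.87 ± 0.21). The ubiquitin ligase gene Itch had -0.99 ± 0.17, the glycosyltransferase gene Ogt -0.92 ± 0.16, the scavenger receptor gene Stab1 -0.91 ± 0.18 and Hps3 -0.88 ± 0.19. Of these falls, DESeq2 called D4Wsu53e, Hmha1 and Tmem86a, the other genes it called lower being Tgfbr1 and 2810008D09Rik.

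The level of the leading genes did not climb evenly over the score. With cells cut into 4 equal classes of the score and CPM taken before scaling between libraries, Klf2 in replicate 1 had 268, 273, 872 and 5380 CPM from the lowest to the highest class, and in replicate 2 it had 471, 420, 560 and 1840 CPM. Btg2 had 286, 298, 875 and 4036 CPM in replicate 1 and 417, 508, 588 and 2398 CPM in replicate 2. The lowest pair of classes were close to each other, and the steepest step came with the highest class. D4Wsu53e was lower in each higher class, with 1713, 1657, 1251 and 465 CPM in replicate 1 and 952, 613, 553 and 402 CPM in replicate 2. Tnf had 14.9, 30.2, 130 and 354 CPM in replicate 1, but 18.1, 105, 89.9 and 95.4 CPM in replicate 2.

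**Figure D5:**
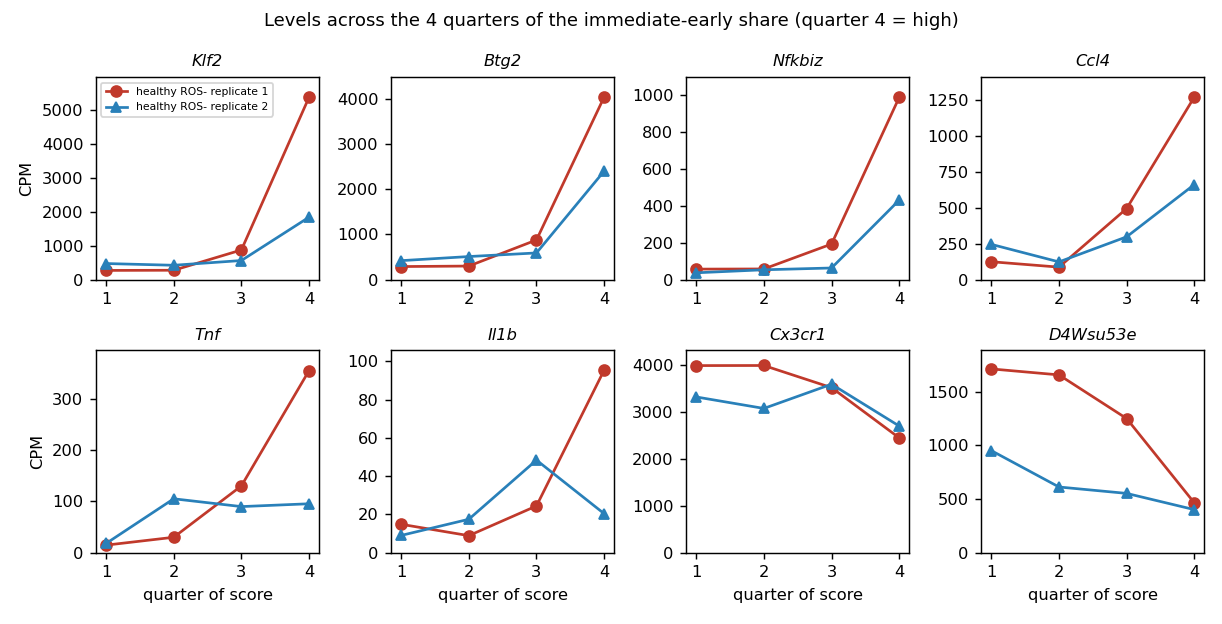
CPM of 8 genes (vertical axes, from 0) in the 4 classes of the score from lowest to highest, in healthy replicate 1 (red circles) and replicate 2 (blue triangles); each point sums the cells of a class. Klf2, Btg2, Nfkbiz and Ccl4 are highest in the highest class of both libraries, Tnf and Il1b in that of replicate 1, and D4Wsu53e is lowest there in both.

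From cell to cell, the genes most like the score were Jund (Spearman correlation 0.69), Btg2 (0.68), Socs3 (0.68), Zfp36 (0.67), Nfkbia (0.65), Klf2 (0.64), Ppp1r15a (0.61), H3f3b (0.61), Nfkbiz (0.60) and Ier5 (0.59), among 1627 genes with UMIs in at least 20% of the 1864 gated cells. The lowest correlation was that of D4Wsu53e, -0.51, and the next lowest that of C1qa, -0.38. The cells share their library and differ in depth, and no p is given. Within replicate 2 alone the correlation was lower for each of the 10 genes named first, from 0.27 (Nfkbia) to 0.57 (Jund).

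The same rule was applied to the EAE ROS- libraries, which had no part in choosing these cells, and gave 288 high and 860 rest cells. The median score of gated cells was 0.218 and 0.230% in the EAE ROS- libraries, against 0.219 and 0.400% in healthy ones (difference of means -0.09 percentage points, two-sided exact permutation p = 0.67, where 2 against 2 libraries cannot go below 0.33). The gated EAE cells carried more RNA of other cells: monocyte and macrophage markers stood at 19.97 and 40.3 per 10000 UMIs in high and 12.8 and 28.1 in rest cells of the 2 libraries, and microglial markers at 58.8 and 49.6 in high and 104 and 86.8 in rest cells. At least 2 UMIs of border macrophage, monocyte, neutrophil, T, NK or B cell markers were held by 91.2% of high and 86.1% of rest cells of EAE ROS- replicate 1. In replicate 2 the shares were 96.8% and 88.7%. An alternative fit without such cells kept 25 high and 72 rest cells of replicate 1, and 9 and 26 of replicate 2. Another took cells with gate genes at 30 or more per 10000 UMIs. Beyond these alternatives the part of this makeup in the EAE differences was not tested.

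In EAE ROS-, 497 of 10950 genes (4.54%) were called, 327 (2.99%) higher and 170 (1.55%) lower in high cells. Of the genes higher in healthy high cells, 141 were also higher in EAE, which is 22.3% of the healthy and 43.1% of the EAE list, and of the lower ones 14 were shared, 4.61% and 8.24% of each list. Klf2 had 1.75 ± 0.19, Fosb 2.07 ± 0.14, Btg2 1.78 ± 0.18, Ppp1r15a 2.22 ± 0.15 and Nfkbiz 1.92 ± 0.14 in EAE, all called. The homeostatic list had 8 of 22 lower and 0 higher in EAE, Fcrls by 1.43 ± 0.18. All 7 score genes, each left out in turn, were called in EAE as well, from 1.27 ± 0.20 (Junb) to 2.16 ± 0.17 (Egr1).

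The difference between EAE ROS- and healthy, tested as an interaction, was called for 293 genes (2.68%). EAE ROS- minus healthy was positive for 41 (0.374%) and negative for 252 (2.3%). A positive value can also mean a smaller fall in EAE, as for B430010I23Rik, with -0.06 in EAE and -1.31 in healthy cells. DESeq2 called 10 of these and limma 0, with 1349 genes at an unadjusted p under 0.05 in edgeR. Rhob was called in healthy cells; it had 0.42 ± 0.17 in EAE (edgeR adjusted p = 0.19), and its difference between groups was -1.15 ± 0.24. For Ccl2 the EAE value was 0.29 ± 0.15 and the difference -3.09 ± 0.29, and for Irf1 they were 0.68 ± 0.13 and -2.32 ± 0.22. Tnf had 2.02 ± 0.13 in EAE, and its difference of -0.45 ± 0.22 was not called (edgeR adjusted p = 0.37). All 7 left-out score genes had smaller differences in EAE, from -0.93 ± 0.25 (Egr1) to -2.03 ± 0.26 (Dusp1). Of these 6 were called, and Jun, at -0.97 ± 0.30, was not (edgeR adjusted p = 0.060). The score limit was 0.493 and 0.436% in EAE ROS- against 1.90 and 0.755% in healthy libraries. The part of this limit in these differences was not tested. In EAE cells with gate genes at 30 or more per 10000 UMIs, Klf2 had 2.24 ± 0.30 and Fosb 3.08 ± 0.27, both called, and Ccl2 had 0.08 ± 0.20.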

How the data were processed

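For 6 libraries the authors deposited raw UMI counts as sparse matrices of genes by barcodes. The submitters' processing notes name Cell Ranger 2.0.1, Seurat 3, R 3.4.2 and mm10. Files listed 38293 gene IDs, 36345 of them in the reference name table.

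Members and gene lists were chosen with earlier results of these data known. Cells needed 200 genes and at most 10% mitochondrial UMIs, which removed 0 healthy barcodes. UMIs of high and rest cells were summed per library for the healthy and EAE ROS- libraries (8 sums). The EAE ROS+ libraries, with 175 and 76 gated cells, were not fitted. Library totals of all 6 ran from 915197 to 23407825 UMIs. Sums were fitted with edgeR 4.0.16 (R 4.3.3) by quasi-likelihood F tests after filterByExpr (at least 10 counts) and TMM, with the library as a block and a high-minus-rest term per condition. The 7 score genes were left out of rows and totals, and the 8 gate genes were not tested. The block pairs sums of 1 sample by construction: their deviations from the class means correlated at 0.41 in healthy and 0.76 in EAE libraries. SE is the absolute log2 difference over the square root of F. The fit was tested on simulated data. Counts of the healthy libraries differed by more than counting error (chi-square per degree of freedom 3.96). Alternatives used DESeq2 1.42.0 and limma 3.58.1.

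The text draws on the 12 called genes of largest difference in each direction whose average log2 CPM reached 6 and whose sign was shared by both healthy libraries, up to 5 per list by p, Klf2 and Rhob, the score genes, up to 6 per direction in EAE and the interaction, and 10 genes by likeness. Rnase4, Cx3cr1, Il1b, Cxcl10, Mafg, Bhlhe40, Map3k8, RP24-64D24.4 and 2810008D09Rik were named after their values were seen. The average log2 CPM runs over all 8 sums, those of EAE ROS- included. Some genes of the lists enter the counts without being reported singly. Promoters came from RefSeq (GRCm38.p6).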

Additional observations from a re-analysis of the deposited data

Results flagged for a closer look

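The tests of the difference between EAE ROS- and healthy cells picked out 21 genes among the largest healthy rises and falls and the given markers, each with an edgeR adjusted p under 0.05. All values are log2 of high over rest in EAE ROS- minus that in healthy cells. The genes were chosen by their healthy difference, which is subtracted here, so that the choice favours a negative sign for genes that rose and a positive one for genes that fell, and the signs are a description. For genes that rose in healthy high cells, the values were -3.09 for Ccl2, -2.89 for Casp4, -2.73 for Klf4, -2.46 for Marcksl1, -2.24 for Pim1, -2.18 for Gadd45b, -2.06 for Fosb, -2.05 for Socs3, -1.95 for Kdm6b, -1.93 for Ier3, -1.49 for Nfkbiz, -1.41 for Ppp1r15a, -1.20 for Klf2 and -1.15 for Rhob. For genes that fell, they were 1.25 for B430010I23Rik, 1.25 for Stab1, 1.02 for D4Wsu53e, 0.94 for Tmem86a, 0.89 for Ccnt2, 0.86 for Zfp207 and 0.85 for Luc7l3. The score limit was lower in EAE ROS- (0.493 and 0.436% of UMIs) than in healthy libraries (1.90 and 0.755%), and the high and rest classes of EAE differed less in score, with medians of 0.764 and 0.634% in high and 0.136 and 0.151% in rest cells. The part of this in the differences was not tested. With a fixed score limit of 1%, chosen after seeing the data, 90 genes were called for the difference in place of 293. With gate genes at 30 or more per 10000 UMIs, also chosen after seeing the data, 51 were called, among them 8 of the 21 (Casp4, Ccl2, Gadd45b, Ier3, Marcksl1, Pim1, Rhob and Socs3). The other 13 were not called, with all 21 of the same sign. Under that gate the difference was -0.56 for Kdm6b, -1.43 for Klf4 and -0.78 for Nfkbiz, and the log2 of high over rest in EAE cells was 3.00 against 1.69 for Kdm6b, 2.25 against 1.04 for Klf4 and 1.73 against 0.85 for Marcksl1, the second value of each pair being that with the usual gate.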

How the results depend on the processing

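Counts of genes called, for high minus rest in healthy cells, in EAE ROS- cells and for their difference, were 936, 497 and 293. DESeq2 gave 137, 40 and 10, limma (chosen after seeing the data) 7, 0 and 0, and the fit with no replicate block 121, 5 and 0. At an unadjusted p under 0.05, limma had 328 genes in EAE cells and 502 for the difference, and the fit with no replicate block had 421 for the difference. With healthy libraries alone 394 were called in healthy cells. The top 10% of cells against the others gave 284, 199 and 47, cells above the median score against the others 388 and 1421 in healthy and EAE cells, and the top 25% against the lowest 25% 447 and 1109. Leaving out cells with at least 2 UMIs of border macrophage, monocyte, neutrophil, T, NK or B cell markers gave 273, 58 and 19. Thinning to 1000 UMIs gave 250, 87 and 37 for the same cells and 247, 120 and 46 for cells chosen again. Chosen after seeing the data, a score limit of 1% gave 340, 199 and 90, and gate genes at 30 or more per 10000 UMIs 468, 151 and 51. Leaving out each library in turn gave 59 to 1457, 27 to 850 and 28 to 824. The lowest healthy count was without healthy replicate 1, the highest without healthy replicate 2. The cause of these changes was not tested.

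Of 72 called genes followed by name, 50 kept call and direction in DESeq2, 31 without healthy replicate 1, 71 without healthy replicate 2, 62 after thinning the same cells and 72 with relative log expression scaling. The log2 difference turned negative without healthy replicate 1 for Il1b (-0.50), Cxcl10 (-8.71), Spp1 (-0.35), Hmox1 (-0.18) and C5ar1 (-0.21). With another library left out, their highest values were 2.80 for Il1b, 2.09 for Cxcl10, 2.60 for Spp1, 1.35 for Hmox1 and 0.87 for C5ar1. It was also negative in DESeq2 and limma for Cxcl10 (-0.31 and -1.40), and with the top 10% of cells for Spp1 (-0.79) and Lpl (-0.19). Of the lists, in DESeq2 7 of 12 AP-1 genes, 14 of 19 feedback genes, 17 of 24 NF-kB genes and 4 of 13 heat shock genes were called higher and 1 of 22 homeostatic genes lower. Without healthy replicate 1 these counts were 3, 9, 6, 0 and 5, and the disease-associated list had 0 of 18 higher and 3 lower in place of 5 and 0. Left-out score genes kept call and direction in each alternative run on them. Replicate 2 rests on 34 high cells with 149412 UMIs, which limits low genes.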
